A study of Mus musculus with 9 samples.

Results

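A set of 43 mouse collagen genes, of 24444 gene symbols counted, was described across normal cerebellum and 2 kinds of WNT-medulloblastoma model tumour. Members are the rows whose symbol is Col, a type number, a and a chain number, with 1 of the 44 matching symbols, Col17a1, left out. They were placed by hand into 11 fibrillar, 8 basement membrane and 24 other collagens. RNA of 9 libraries was sequenced, in 3 groups of 3. Normal cerebellum came from CD1-nude mice, which lack a thymus, and makes the first group. The other 2 groups are tumours in CD1-nude hosts that received cells of mice with Blbp-Cre, Ctnnb1Ex3flx/flx, Trp53flx/flx and Pik3caE545K +/flx, and GFP-positive pieces of them were dissected. Blbp-Cre is a recombinase driven by a promoter of neural progenitors and radial glia. Its action on these alleles stabilises beta-catenin, removes p53 and turns on a mutant PI3-kinase, so both tumour groups share all 3 lesions. The implanted cells carried either a construct labelled EV or MycT58A, a Myc with a mutation that slows its breakdown. The labels give neither ages nor the number of batches of implanted cells behind each group. The p-values therefore cover the spread among these libraries, which may be partly technical. Host and tumour are both mouse, and the counts do not separate their RNA.

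Collagens are mostly secreted proteins of 3 chains wound into a triple helix. Fibrillar collagens assemble into the cables of skin, bone and connective tissue, type IV collagen forms the network of basement membranes under epithelium and around vessels, and the others join, coat or anchor these structures or stay in the cell membrane. Normal brain tissue holds little fibrillar collagen, and its collagens sit mainly in the meninges and in the walls of blood vessels.

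Total counts per library ranged from 16631523 to 30410089. Levels are given as CPM, counts per 1000000 of the library size after TMM scaling, which corrects for RNA composition, and values in a list follow replicates 1, 2 and 3 of a group. Myc checks the labels: its level was 0.94, 1.59 and 32 CPM in normal cerebellum, 360.0, 19.9 and 762 CPM in EV libraries and 918, 859 and 727 CPM in those with MycT58A. The library labelled EV replicate 3 thus lay inside the MycT58A range, so the counts of collagens past the test in comparisons with EV tumours are also given without it. The controls are cerebellum by their source label, while a protocol text names cortex. The summed level of 8 cerebellar granule neuron genes, among them Gabra6, was 4487 to 6259 CPM in the controls and 11.5 to 50.9 and 18.8 to 57 CPM in EV and MycT58A tumours. That of 6 Purkinje cell genes, among them Pcp2, was 9147 to 10460.4 CPM against 96 to 305 and 89.8 to 146 CPM.

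Collagen RNA was scarce in normal cerebellum, higher in MycT58A tumours and highest in EV tumours. The summed level of all 43 genes was 407, 449 and 471 CPM in the normal libraries, 1339, 1422 and 1001 CPM in the MycT58A libraries and 3620.4, 13907 and 10821 CPM in the EV libraries. The 3 groups did not overlap in this sum, and the EV libraries differed among themselves more than the other groups did. As a share of all counts, collagens made 0.0402, 0.0466 and 0.0477% in normal cerebellum, 0.356, 1.49 and 1.15% in EV tumours and 0.129, 0.132 and 0.0962% in MycT58A tumours. In bulk tissue, fewer cells of a type and less RNA per cell cannot be told apart.

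**Figure D1:**
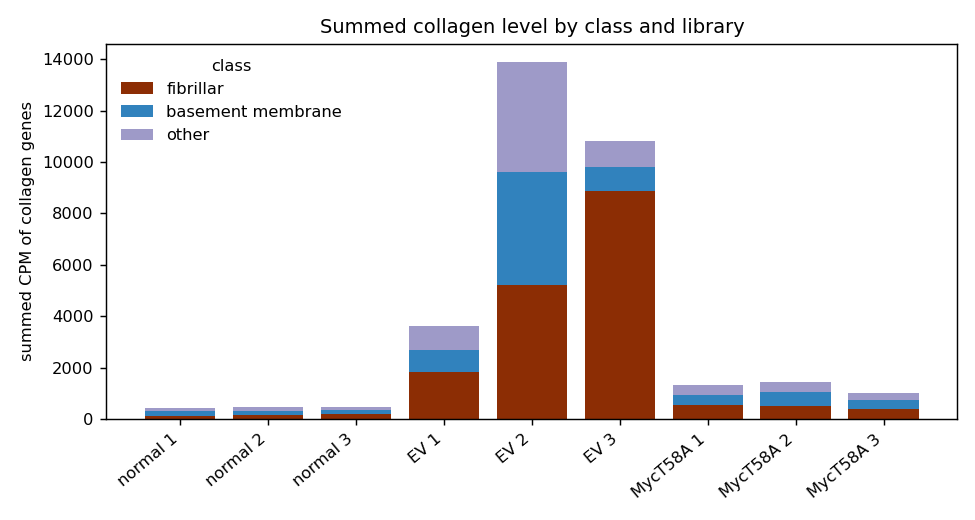
Summed CPM of the collagen genes in each library (bars, stacked by class: fibrillar, basement membrane, other), with the library's group and replicate on the horizontal axis. The normal libraries stand at 407, 449 and 471 CPM in all and the EV libraries at 3620.4, 13907 and 10821 CPM, and fibrillar collagens make most of the bar of EV replicate 3.

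Each group had its own leading collagens. In normal cerebellum the first place by share of collagen counts went to Col18a1, the multiplexin of vessel walls whose end fragment is endostatin, at 24.8%, 21% and 16.3%. MycT58A tumours were led by the basement membrane chain Col4a1, at 13.4%, 19.1% and 14.2%, and all 3 also had Col3a1 and Col5a2 among their first 4. The EV tumours each had another order. EV replicate 1 was led by Col3a1 (28.7%) and Col5a1 (15.2%), EV replicate 2 by Col1a1 (22.3%) and Col4a1 (13.5%), and EV replicate 3 by Col1a1 (55.5%) and Col1a2 (16.7%). Fibrillar collagens made 50.3, 37.5 and 82.2% of collagen counts in the EV libraries, 41, 34.8 and 39% in the MycT58A libraries and 26.3, 31.2 and 37.8% in the normal libraries. Levels per kilobase of exon allow only a rough comparison between genes, because exon lengths join all annotated transcripts and so depend on the annotation. On this scale the highest means were those of Col18a1 in normal cerebellum (12.9 ± 1.78 CPM per kb, SD, n = 3), Col4a1 in MycT58A tumours (26.5 ± 8.86) and Col1a1 in EV tumours (463 ± 457). The neighbours in these orders, Col9a2 in normal cerebellum (10.3 ± 1.86), Col4a2 in MycT58A tumours (18.5 ± 7.61) and Col4a2 in EV tumours (126 ± 135), overlapped with them within 1 SD.

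What the tumours of this model express over normal cerebellum is the question of the first pair of comparisons. Of the 43 collagens, 40 had enough counts to be tested, and Col10a1, Col22a1 and Col6a4 had not. In EV tumours 29 rose and 2 fell against normal cerebellum (edgeR quasi-likelihood test, Benjamini-Hochberg adjusted p under 0.05 over all 15171 genes tested), where 30.7% of all genes tested rose and 26.3% fell. In MycT58A tumours 15 rose and 3 fell, where 31.2% of all genes rose and 31.0% fell. The median log2 fold change of the tested collagens was 3.77 in EV and 1.26 in MycT58A tumours, beside 0.14 and -0.02 over all genes tested. A gene that is near 0 in normal tissue enters the test only through the tumours, so these counts describe the members that could be tested. Both comparisons use the same 3 control libraries. With groups that did not overlap, 21 collagens were higher and 4 lower in EV tumours, beside 30.3% and 32.2% of all genes tested, and 22 were higher and 9 lower in MycT58A tumours, beside 41.0% and 41.5%. By class the median log2 fold change in EV tumours was 5.02 for fibrillar, 3.53 for basement membrane and 3.74 for other collagens, and in MycT58A tumours 1.33, 0.51 and 2.03. Without EV replicate 3 the count in EV tumours was 29 higher and 3 lower (all genes 31.3% and 26.7%), and without EV replicate 2, which had the highest collagen sum, 27 higher and 4 lower (34.4% and 31.6%). Without normal replicate 1, 2 and 3 it was 22, 23 and 23 higher and 2 lower each time. Of all genes 3651 of 15428, 3675 of 15483 and 3737 of 15547 were then higher, and 3312, 3279 and 3360 lower. With only normal and EV libraries in the fit 24 were higher and 2 lower, beside 3632 and 3373 of 14754 genes. With limma-voom 18 were higher and 4 lower (all genes 26.3% and 29.5%), and the calls of Col1a1, Col5a3, Col6a3 and Col8a1 were among those that ended. Col2a1 missed the threshold when voom weights were set per group (limma adjusted p = 0.146). Genes outside the 31 also passed when 1 EV library was left out: Col1a2 and Col10a1, which was then tested, without EV replicate 1 or 2, Col4a6 and Col19a1 without EV replicate 3, and Col9a3 and Col20a1 without EV replicate 2. Of these, Col10a1 stood above 1 CPM in EV replicate 3 alone, so its call rests on that library. In MycT58A tumours the counts were 23 higher and 10 lower when only the 2 groups compared were in the fit (all genes 40.1% and 40.4%), and the added calls were partly those gained by leaving out 1 EV library: Col6a1, Col6a3, Col8a1 and Col27a1 without EV replicate 1, Col5a3, Col6a1, Col6a2, Col6a3 and Col20a1 without EV replicate 2, and Col4a6, Col6a6, Col11a2 and Col12a1 without EV replicate 3.

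The comparison of the tumour groups asks what MycT58A changes. Of the 40 collagens tested, 6 fell and 0 rose in MycT58A against EV tumours, where 5.02% of all genes tested fell and 3.28% rose. The 6 were Col5a2, Col11a1, Col4a2, Col6a1, Col6a2 and Col6a6. At an unadjusted p under 0.05 edgeR had 28 of the 40, in either direction, of which 1 (Col9a2) was higher, beside 31.1% of all genes tested. DESeq2 called 22 lower and 1 higher, beside 13.9% and 8.77% of all genes, and limma-voom 4 lower and 1 higher, beside 4.15% and 5.83%. The median log2 fold change was -2.38 for collagens and -0.04 for all genes tested. By class the median was -3.39 for fibrillar, -2.76 for basement membrane and -1.48 for other collagens. Of the 40, 13 had every MycT58A library below every EV library and 3 (Col2a1, Col9a1 and Col9a2) had every one above, where 13.6% and 18.2% of all genes tested did. The count depended on which libraries were in the fit. Without any 1 of the MycT58A libraries 0 of the 6 calls stayed. Over all genes 44, 31 and 18 were lower without MycT58A replicate 1, 2 and 3, against 761 with all 9 libraries. With only the 2 groups in the fit 0 stayed as well, where 24 of 14144 genes were lower and 10 higher. Without any 1 of the normal libraries 2 (Col6a1 and Col6a2) stayed. Over all genes 260, 230 and 258 were lower without normal replicate 1, 2 and 3. The count grew to 15, 9 and 16 lower without EV replicate 1, 2 and 3, where 7.9%, 7.69% and 14.7% of all genes were lower. Col1a1, Col1a2, Col4a3, Col16a1 and Col27a1 were among those gained without EV replicate 1, Col5a1 and Col24a1 without EV replicate 2, and Col3a1, Col4a5, Col12a1, Col14a1, Col16a1 and Col23a1 without EV replicate 3. Without the low-count filter Col5a2, Col11a1 and Col4a2 missed the threshold.

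**Figure D2:**
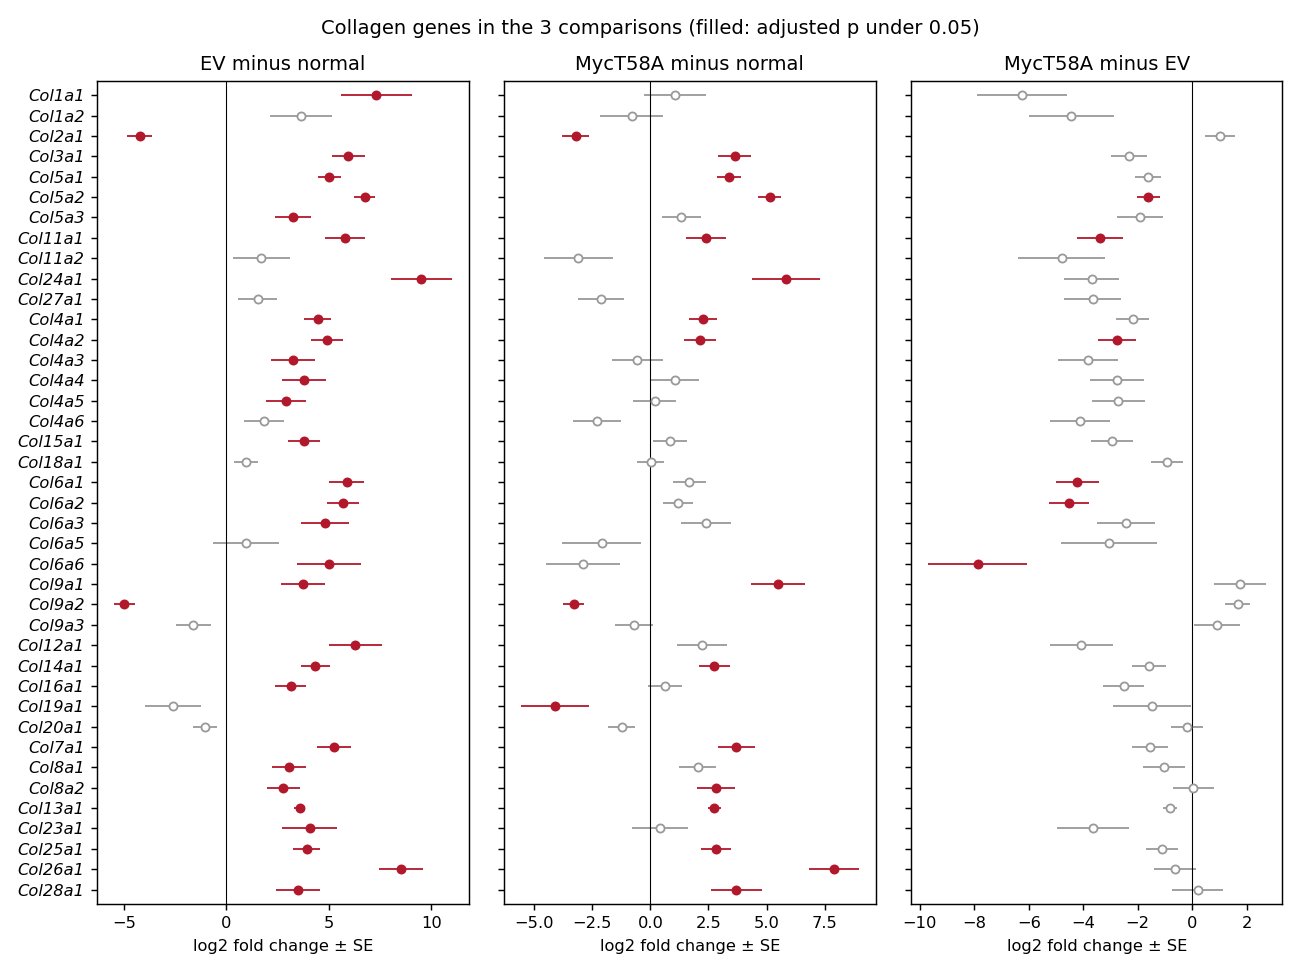
Log2 fold change with its SE (horizontal axis, edgeR) of the 40 tested collagens in the 3 comparisons, filled red where the adjusted p was under 0.05. Most points lie right of 0 in the EV and MycT58A comparisons with normal cerebellum and left of 0 in MycT58A minus EV, where 6 are filled.

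The main fibril-forming collagens separated the EV tumours from each other. Col1a1 (chromosome 11, 94936224 to 94953042, mm10), the major chain of type I collagen of bone and skin, stood at 11.8, 23.3 and 22.1 CPM in normal, 11.1, 3103 and 6006 CPM in EV and 46.8, 53.4 and 19 CPM in MycT58A libraries. EV replicates 2 and 3 were far above all other libraries, and EV replicate 1 lay below every normal library. The fitted rise in EV tumours was 159.7-fold (edgeR adjusted p = 0.00711), or 239.7-fold without EV replicate 1 and 81.7-fold without EV replicate 3. Between the tumour groups Col1a1 stood at 76.5-fold lower in MycT58A tumours, with an edgeR adjusted p of 0.0526, and it passed without EV replicate 1 (114-fold, edgeR adjusted p = 0.0048) or replicate 3 (38.5-fold, 0.0483). Col1a2 (chromosome 6, 4504814 to 4541544), the partner chain, stood at 9.69, 63.1 and 1807 CPM in EV, 39.8, 27.8 and 18.5 CPM in MycT58A and 33.5, 55 and 61.7 CPM in normal libraries. Only EV replicate 3 was clearly higher than normal tissue, and in edgeR with all 9 libraries the gene missed the threshold in all 3 comparisons (edgeR adjusted p = 0.0658, 0.628 and 0.0991 for EV and MycT58A against normal and for MycT58A against EV). DESeq2 called it higher in EV than in normal tissue and lower in MycT58A than in EV tumours (DESeq2 adjusted p = 0.00592 and 0.00269). In edgeR it passed against normal without EV replicate 1 or 2 (edgeR adjusted p = 0.0145 and 0.0337), and without EV replicate 3 its direction turned, to 1.37-fold lower (edgeR adjusted p = 0.591).

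Col3a1 (chromosome 1, 45311538 to 45349706), the chain of type III collagen of vessel walls and loose connective tissue, stood at 1037, 1077 and 165 CPM in EV, 177, 138 and 140.2 CPM in MycT58A and 5.52, 16.9 and 14.3 CPM in normal libraries. Every tumour library was above every normal library, and here EV replicate 3 lay among the MycT58A libraries. Col3a1 rose 62-fold in EV tumours (edgeR adjusted p = 0.000398) and 12.4-fold in those with MycT58A (edgeR adjusted p = 0.00228). High Col3a1 thus came with high Col1a1 in EV replicate 2, with low Col1a1 in EV replicate 1, and was lower in EV replicate 3, where Col1a1 was highest.

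Type V collagen starts and limits the width of type I fibrils, and its 2 main chains rose in both kinds of tumour. Col5a2 (chromosome 1, 45374321 to 45503282) stood at 2.49, 5.05 and 3.78 CPM in normal, 191, 593 and 437 CPM in EV and 141, 152 and 106 CPM in MycT58A libraries, 3 groups without overlap. It rose 108-fold in EV (log2 fold change 6.75 ± 0.53 SE, edgeR adjusted p = 3.92e-05) and 35.2-fold in those with MycT58A (edgeR adjusted p = 7.32e-05). Between the tumours it was 3.06-fold lower with MycT58A, at the edge of the threshold (edgeR adjusted p = 0.04997); without any 1 of the normal or MycT58A libraries or EV replicate 2 this call ended (edgeR adjusted p = 0.063 to 0.171). Col5a1 stood at 550.1, 114 and 282 CPM in EV, 117, 102 and 87.6 CPM in MycT58A and 11, 10.6 and 7.56 CPM in normal libraries, with its highest value in the EV library that had the least Col1a1. Its rise was 32.4-fold in EV (edgeR adjusted p = 0.000175), or 20.4-fold without EV replicate 1, and 10.5-fold in those with MycT58A (edgeR adjusted p = 0.00066). Col5a3, a rarer type V chain, stood at 7.29, 98.3 and 16.6 CPM in EV libraries, where it rose 9.5-fold (edgeR adjusted p = 0.0131), or 2.79-fold without EV replicate 2.

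Of the fibrillar collagens of cartilage, Col2a1 went the other way. Col2a1 (chromosome 15, 97975602 to 98004695), the type II chain of cartilage, stood at 21.2, 15.2 and 53.5 CPM in normal cerebellum, 1.16, 1.1 and 2.55 CPM in EV and 4.46, 2.63 and 2.64 CPM in MycT58A tumours. All 6 tumour libraries were below all 3 normal libraries. It fell 18.7-fold in EV (edgeR adjusted p = 0.000608) and 9.22-fold in those with MycT58A (edgeR adjusted p = 0.00153), or 11- and 5.54-fold without normal replicate 3. Col11a1, which shares fibrils with type II collagen in cartilage and with type V elsewhere, stood at 0.695, 1.15 and 1.87 CPM in normal, 9.18, 149 and 45.6 CPM in EV and 6.22, 7.2 and 6.05 CPM in MycT58A libraries, again 3 groups without overlap. Its rise was 54.9-fold in EV tumours (edgeR adjusted p = 0.00131), or 22.2-fold without EV replicate 2, and 5.25-fold in those with MycT58A (edgeR adjusted p = 0.0368). The second of these calls ended without any 1 normal or MycT58A library (edgeR adjusted p = 0.0506 to 0.108). Its fall of 10.5-fold in MycT58A against EV tumours (edgeR adjusted p = 0.0475) was 4.2-fold without EV replicate 2, and the call ended without that library or any 1 normal or MycT58A library (edgeR adjusted p = 0.0589 to 0.161). Col11a2, its partner, was high in EV replicate 3 alone (1.34, 2.76 and 89.5 CPM against 14.8, 7.71 and 6.11 in normal and 2.41, 0.497 and 0.426 in MycT58A libraries) and missed the edgeR threshold in all 3 comparisons (edgeR adjusted p = 0.315, 0.1 and 0.0884). Without EV replicate 3 its log2 fold change in EV against normal tissue turned from 1.71 to -2.21, and voom weights per group called it lower in MycT58A than in normal tissue (limma adjusted p = 0.00262).

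Col24a1, a fibrillar collagen of developing bone and eye, was close to absent in normal cerebellum, with 1 count in all 3 libraries, and stood at 2.19, 7.52 and 33.5 CPM in EV and 1.3, 1.56 and 0.469 CPM in MycT58A libraries. Its summed counts were 832 in EV and 91 in MycT58A tumours, so the ratio to normal tissue was 809 (exact 95% counting interval 145 to 32008) and 78.4 (13.7 to 3132). These intervals cover counting error only. Both rises passed (edgeR adjusted p = 0.000879 and 0.00737), also with any 1 library left out. Its tumour counts alone brought the gene past the low-count filter, so a high tumour level was a condition of testing it. The fitted rise in EV tumours was 733-fold, or 250-fold without EV replicate 3 and 2860-fold without normal replicate 1. The fitted rise in MycT58A tumours was 56.9-fold, or 217-fold without normal replicate 1. Without that library the controls held 0 counts, so the size of the 2860- and 217-fold values depends on the prior count. Col27a1, another cartilage fibril gene, stood at 2.94, 1.86 and 0.607 CPM in normal, 0.719, 5.95 and 8.96 CPM in EV and 0.576, 0.106 and 0.554 CPM in MycT58A libraries and missed the edgeR threshold in all 3 comparisons (edgeR adjusted p = 0.197, 0.093 and 0.0638). DESeq2 called it lower in MycT58A tumours than in normal tissue and in EV tumours (DESeq2 adjusted p = 0.0403 and 0.00188). In all, 7 of 11 fibrillar genes rose and 1 fell in EV tumours, 5 rose and 1 fell in MycT58A tumours, and 2 fell and 0 rose in MycT58A against EV tumours. Beside these, 30.7% of all genes rose and 26.3% fell in EV tumours, and 31.2% rose and 31.0% fell in MycT58A tumours. Between the tumours 5.02% of all genes fell and 3.28% rose.

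**Figure D3:**
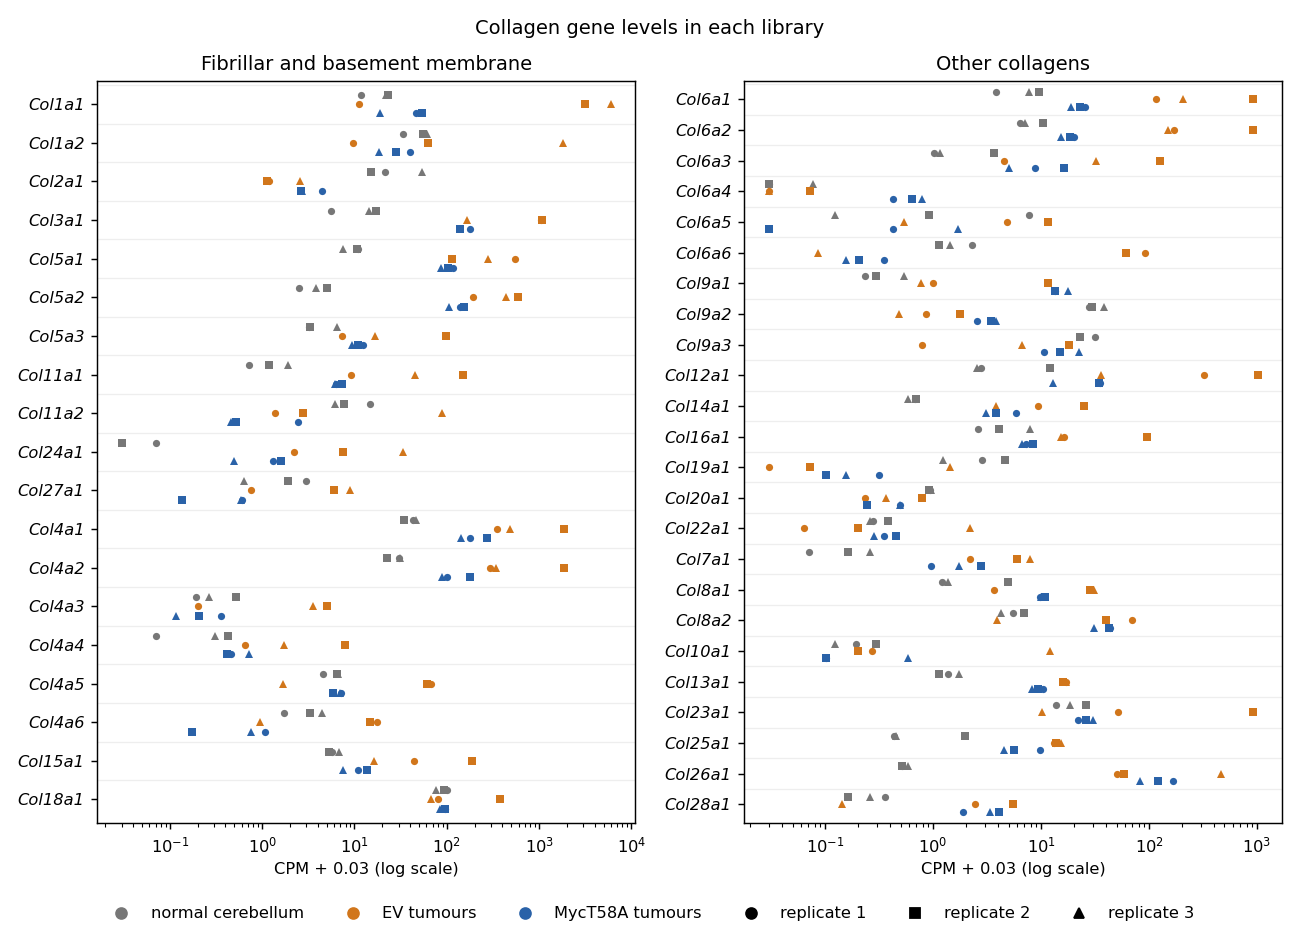
Level of each of the 43 collagen genes in each library, as CPM plus 0.03 on a log scale (horizontal axis), with colour for the group and shape for the replicate. For Col1a1 the EV points run from 11.1 to 6006 CPM, while the MycT58A points of most genes lie close together.

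The type IV basement membrane chains are encoded in pairs of neighbouring genes that point away from each other. Col4a1 and Col4a2, whose chains make the common type IV network, lie on chromosome 8 (11198423 to 11312826 and 11312805 to 11449287) with starts 21 bases apart, so their 5′ ends overlap. Col4a5 and Col4a6 lie on chromosome X with starts 1343 bases apart. Their promoter windows are shown because the genes of each pair start close to each other and point apart, and they were chosen after the values were seen. Each runs from 250 bases before to 50 bases after the gene's start, 5′ to 3′ on the gene's strand (RefSeq, GRCm38.p6), and capitals mark CCAAT boxes (CCAAT) and GC boxes (GGGCGG) on either strand.
Col4a1 (chr8:11312777-11313076, minus strand): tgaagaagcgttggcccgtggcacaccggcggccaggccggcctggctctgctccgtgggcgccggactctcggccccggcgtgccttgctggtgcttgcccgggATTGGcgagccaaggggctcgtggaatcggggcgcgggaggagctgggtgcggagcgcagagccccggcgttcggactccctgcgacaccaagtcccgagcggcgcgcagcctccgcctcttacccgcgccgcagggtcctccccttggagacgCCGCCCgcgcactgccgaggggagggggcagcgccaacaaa
Col4a2 (chr8:11312555-11312854, plus strand): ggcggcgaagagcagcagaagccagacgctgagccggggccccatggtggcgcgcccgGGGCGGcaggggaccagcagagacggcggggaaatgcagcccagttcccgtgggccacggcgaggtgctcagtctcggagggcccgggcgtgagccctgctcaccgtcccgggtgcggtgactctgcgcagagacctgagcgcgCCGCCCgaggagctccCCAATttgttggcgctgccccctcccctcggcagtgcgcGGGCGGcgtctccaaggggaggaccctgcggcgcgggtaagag
Col4a5 (chrX:141475169-141475468, plus strand): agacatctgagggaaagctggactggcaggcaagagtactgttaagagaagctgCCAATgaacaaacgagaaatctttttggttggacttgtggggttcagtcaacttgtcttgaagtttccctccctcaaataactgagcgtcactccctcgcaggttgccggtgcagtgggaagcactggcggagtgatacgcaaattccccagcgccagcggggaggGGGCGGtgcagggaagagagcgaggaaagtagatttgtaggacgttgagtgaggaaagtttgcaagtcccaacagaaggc
Col4a6 (chrX:141474027-141474326, minus strand): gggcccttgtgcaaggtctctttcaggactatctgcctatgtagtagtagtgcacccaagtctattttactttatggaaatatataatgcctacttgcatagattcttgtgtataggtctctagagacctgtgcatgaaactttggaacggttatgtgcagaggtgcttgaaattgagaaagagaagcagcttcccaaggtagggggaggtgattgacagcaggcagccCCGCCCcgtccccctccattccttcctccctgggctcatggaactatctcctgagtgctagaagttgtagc

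The windows of Col4a1 and Col4a2 share 78 bases. The search found 1 CCAAT box and 1 GC box in the Col4a1 window, 1 and 3 in that of Col4a2, 1 and 1 in that of Col4a5, and 0 and 1 in that of Col4a6. Of all 32851 promoter windows of this length, 37.4% held a CCAAT box and 35.7% a GC box. Of 37 windows of 34 matched collagen genes, 12 and 23 did. The letters CTTTGAT, a core that TCF/LEF factors bind, were in 1 collagen window and in 3.73% of all windows, and CACGTG, the E-box that MYC binds, in 0 collagen windows and 7.15% of all windows.

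Both common type IV chains rose in both kinds of tumour. Col4a1 stood at 42.9, 34.1 and 46.2 CPM in normal, 348, 1879 and 479.9 CPM in EV and 180.1, 271 and 143 CPM in MycT58A libraries, with Col4a2 at 30.0, 22.2 and 31.1 CPM in normal, 295, 1862 and 337 CPM in EV and 99.8, 180.4 and 87.7 CPM in MycT58A libraries. The 3 groups did not overlap for either gene, and EV replicate 2 was highest for both. Col4a1 rose 22-fold in EV (edgeR adjusted p = 0.000744), or 10.1-fold without EV replicate 2, and 4.82-fold in those with MycT58A (edgeR adjusted p = 0.0109). Col4a2 rose 29.9-fold in EV (edgeR adjusted p = 0.00103), or 11.4-fold without that library, and 4.41-fold in those with MycT58A (edgeR adjusted p = 0.0253). The last call ended without any 1 normal library or MycT58A replicate 2 (edgeR adjusted p = 0.0574 to 0.0796). Between the tumours Col4a2 fell 6.78-fold with MycT58A (edgeR adjusted p = 0.0498), or 2.58-fold without EV replicate 2, and the call ended without any 1 normal or MycT58A library (edgeR adjusted p = 0.0855 to 0.17). Col4a1 stood at 4.56-fold lower (edgeR adjusted p = 0.0584), or 2.09-fold without EV replicate 2, and passed without any 1 EV library (edgeR adjusted p = 0.0245 to 0.044).

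The minor type IV chains differed from the common pair. Col4a5, which replaces the common chains in the kidney filter and around smooth muscle, stood at 66.8, 61.5 and 1.64 CPM in EV, 7.05, 5.86 and 6.91 CPM in MycT58A and 4.54, 6.42 and 6.53 CPM in normal libraries. Col4a6, its neighbour, stood at 1.68, 3.23 and 4.43 CPM in normal, 17.7, 14.5 and 0.907 CPM in EV and 1.04, 0.142 and 0.725 CPM in MycT58A libraries. The ratio of Col4a5 to Col4a6, in counts per kilobase, was 3.21, 2.36 and 1.75 in normal, 4.49, 5.02 and 2.15 in EV and 8.02, 49 and 11.3 in MycT58A libraries, the last resting on few Col4a6 counts. Both were high in EV replicates 1 and 2 and low in EV replicate 3, which was the lowest of the 9 libraries for Col4a5. The rise of Col4a5 in EV tumours (7.43-fold, edgeR adjusted p = 0.0325) was 11.2-fold without EV replicate 3 and ended without any 1 normal library, EV replicate 1 or 2 or MycT58A replicate 3 (edgeR adjusted p = 0.0504 to 0.0961). Col4a6 missed the edgeR threshold in all 3 comparisons (edgeR adjusted p = 0.142, 0.0821 and 0.0535). DESeq2 called it lower in MycT58A tumours than in normal tissue and in EV tumours (DESeq2 adjusted p = 0.0258 and 0.000365), and in edgeR without EV replicate 3 it passed in all 3 (edgeR adjusted p = 0.0161, 0.0152 and 0.00535). Col4a3 and Col4a4, chains of the kidney filter, lie head to head on chromosome 1 and stayed at low levels, with 0.171, 4.97 and 3.52 CPM of Col4a3 and 0.616, 7.86 and 1.7 CPM of Col4a4 in EV libraries and under 1 CPM in every normal and MycT58A library. They rose 9.63- and 14-fold in EV tumours (edgeR adjusted p = 0.0291 and 0.0148), or 6.09- and 4.75-fold without EV replicate 2, and the call for Col4a3 ended without any 1 normal library, EV replicate 2 or EV replicate 3 (edgeR adjusted p = 0.0513 to 0.094).

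The 2 multiplexins, which attach basement membranes to the matrix beside them, behaved unlike each other. Col15a1 stood at 5.68, 5.32 and 6.77 CPM in normal, 44.1, 185 and 16.4 CPM in EV and 10.8, 13.7 and 7.5 CPM in MycT58A libraries. It rose 13.8-fold in EV tumours (edgeR adjusted p = 0.00409), or 5.14-fold without EV replicate 2, and its difference between the tumours narrowly missed the threshold (edgeR adjusted p = 0.0517, or 0.00594 to 0.0488 without any 1 EV library). Col18a1, the leading collagen of normal cerebellum, stood at 101, 94.2 and 76.7 CPM there, 80.3, 377 and 67.4 CPM in EV and 95.7, 96.5 and 83.6 CPM in MycT58A libraries. Apart from EV replicate 2 all libraries lay between 67.4 and 101 CPM, and it missed the threshold in all 3 comparisons (edgeR adjusted p = 0.192, 0.977 and 0.305). Without EV replicate 2 its direction in EV against normal tissue turned, to 1.22-fold lower (edgeR adjusted p = 0.165). In all, 6 of 8 basement membrane genes rose in EV tumours, 2 rose in MycT58A tumours, 1 fell in MycT58A against EV tumours, and none fell against normal tissue. With 31.2% of all genes higher in MycT58A tumours, 2 of 8 lies no higher than the background, while 6 of 8 in EV tumours stands beside 30.7%. Falls made 26.3% of all genes in EV and 31.0% in MycT58A tumours against normal tissue, and 5.02% between the tumours.

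Type VI collagen forms beaded filaments around cells, from the chains of Col6a1 and Col6a2 and a partner such as that of Col6a3. Col6a2 and Col6a1 had the smallest adjusted p of all collagens between the tumours. Col6a1 (chromosome 10, 76708792 to 76726168) stood at 115, 925 and 207 CPM in EV, 25.3, 23 and 18.8 CPM in MycT58A and 3.8, 9.53 and 7.75 CPM in normal libraries. Col6a2 (chromosome 10, 76595762 to 76623630) stood at 6.29, 10.5 and 7.09 CPM in normal, 171, 917 and 151 CPM in EV and 20.2, 18.6 and 15.4 CPM in MycT58A libraries. For both genes the 3 groups did not overlap and EV replicate 2 was highest. In EV tumours Col6a1 rose 59.1-fold (edgeR adjusted p = 0.000606) and Col6a2 51.9-fold (edgeR adjusted p = 0.00045), or 23- and 20.3-fold without EV replicate 2. Against normal tissue MycT58A tumours stood at 3.18- and 2.27-fold (edgeR adjusted p = 0.069 and 0.14), and both genes passed without EV replicate 2 (edgeR adjusted p = 0.00393 and 0.00165), Col6a1 also without EV replicate 1 (edgeR adjusted p = 0.0305). Between the tumours Col6a1 fell 18.6-fold with MycT58A (log2 fold change -4.22 ± 0.78 SE, edgeR adjusted p = 0.0225) and Col6a2 22.9-fold (-4.51 ± 0.73 SE, edgeR adjusted p = 0.015). Without EV replicate 2 these falls were 7.18- and 8.89-fold (edgeR adjusted p = 0.00498 and 0.000792). Without any 1 MycT58A library they missed the threshold (edgeR adjusted p = 0.0931 to 0.105 and 0.0738 to 0.0873).

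The promoter windows of this pair are shown because their genes passed between the tumours with the smallest p-values among the collagens. They lie on chromosome 10, 85161 bases apart and on the same strand, and windows and capitals are as for type IV collagen.
Col6a1 (chr10:76725995-76726294, minus strand): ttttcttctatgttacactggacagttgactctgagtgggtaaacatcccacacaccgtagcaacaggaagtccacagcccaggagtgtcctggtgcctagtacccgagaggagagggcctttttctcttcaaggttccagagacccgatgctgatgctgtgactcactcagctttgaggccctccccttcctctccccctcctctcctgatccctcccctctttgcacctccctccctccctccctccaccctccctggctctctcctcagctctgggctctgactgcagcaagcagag
Col6a2 (chr10:76623581-76623880, minus strand, the upstream of its 2 starts): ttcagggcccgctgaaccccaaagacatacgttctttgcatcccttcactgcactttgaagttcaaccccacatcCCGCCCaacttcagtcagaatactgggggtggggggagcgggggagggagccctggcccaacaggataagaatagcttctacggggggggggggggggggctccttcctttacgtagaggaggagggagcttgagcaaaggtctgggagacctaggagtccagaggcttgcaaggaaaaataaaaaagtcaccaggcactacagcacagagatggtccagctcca

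The Col6a1 window held 0 CCAAT and 0 GC boxes and that of Col6a2 0 and 1. None of the windows shown held the TATA box TATAAA or the letters CTTTGAT or CACGTG named above.

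Col6a3 and its relatives on chromosome 9 make the partner chains. Col6a3 stood at 4.49, 127 and 32.1 CPM in EV libraries, where it rose 28.2-fold (edgeR adjusted p = 0.00832), or 9.49-fold without EV replicate 2 and 51.6-fold without normal replicate 2, and at 8.74, 16.3 and 5.07 CPM in MycT58A and 0.981, 3.68 and 1.12 CPM in normal libraries. Col6a6 stood at 91.7, 61.8 and 0.0567 CPM in EV, 0.324, 0.177 and 0.128 CPM in MycT58A and 2.25, 1.11 and 1.4 CPM in normal libraries, so that EV replicate 3, with 1 count, was the lowest of all 9. Col6a6 rose 32.1-fold in EV tumours (edgeR adjusted p = 0.0231), a value that was 19.4-fold without EV replicate 1, where the call ended (0.055), and 49-fold without EV replicate 3. That call also ended without any 1 normal library (edgeR adjusted p = 0.0615 to 0.0782). Its fall between the tumours was 236-fold (edgeR adjusted p = 0.0389), or 142- and 355-fold without EV replicate 1 and 3, although the groups overlapped, and it ended without any 1 normal or MycT58A library (edgeR adjusted p = 0.0713 to 0.145). Col6a5 stood at 4.83, 11.6 and 0.51 CPM in EV, 0.396, 0 and 1.66 CPM in MycT58A and 7.72, 0.886 and 0.0933 CPM in normal libraries and missed the edgeR threshold in all 3 comparisons. Col6a4 was too low to be tested, with 46 counts in all MycT58A libraries, 1 in all EV and 1 in all normal libraries. Its ratio in MycT58A to EV tumours was 40.8, with an exact 95% counting interval of 6.96 to 1644.

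Type IX collagen decorates cartilage fibrils and is built from the products of Col9a1, Col9a2 and Col9a3, of which 1 gene fell and 1 rose. Col9a2 (chromosome 4, 121039385 to 121055322) stood at 28, 29.4 and 38.6 CPM in normal, 0.822, 1.74 and 0.454 CPM in EV and 2.52, 3.44 and 3.79 CPM in MycT58A libraries. It fell 31.4-fold in EV (edgeR adjusted p = 0.000117), or 48.3-fold without EV replicate 2, and 9.83-fold in those with MycT58A (edgeR adjusted p = 0.000432). Col9a1 (chromosome 1, 24177610 to 24252684) went the opposite way, with 0.204, 0.266 and 0.513 CPM in normal, 0.959, 11.6 and 0.737 CPM in EV and 13.5, 13.6 and 17.7 CPM in MycT58A libraries. It rose 45-fold in those with MycT58A (edgeR adjusted p = 0.00316), whose 3 libraries lay above all others. In EV tumours its rise of 13.4-fold (edgeR adjusted p = 0.0167) was 2.62-fold without EV replicate 2, and the call ended without normal replicate 1 or 2 (edgeR adjusted p = 0.0594 and 0.0578). Col9a3 stood at 31.8, 22.9 and 23.1 CPM in normal, 0.753, 18 and 6.69 CPM in EV and 10.6, 14.8 and 22.3 CPM in MycT58A libraries and missed the edgeR threshold in all 3 comparisons (edgeR adjusted p = 0.132, 0.478 and 0.479). With limma-voom it was called lower in EV than in normal tissue (limma adjusted p = 0.0257), and with voom weights per group in MycT58A tumours (0.0258). Between the tumours Col9a1 and Col9a2 stood at 3.37- and 3.2-fold higher with MycT58A without passing (edgeR adjusted p = 0.238 and 0.0547). Without EV replicate 2 both passed, at 17.3- and 4.93-fold (edgeR adjusted p = 0.00225 and 0.00699), and Col9a2 also without EV replicate 3, at 2.56-fold (0.0364).

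Of the other collagens that coat fibrils, Col12a1, Col14a1 and Col16a1 rose in EV tumours and Col14a1 also in MycT58A tumours. Col12a1, found on fibrils of tendon and of scarring tissue, stood at 322, 1021 and 35.9 CPM in EV, 35, 34.4 and 13 CPM in MycT58A and 2.78, 12.2 and 2.52 CPM in normal libraries. EV replicates 1 and 2 were far above the rest. Its rise in EV tumours was 78.8-fold (edgeR adjusted p = 0.00348), or 30.9-fold without EV replicate 2 and 173-fold without normal replicate 2. Col14a1, another fibril-coating collagen, rose 20.1-fold in EV (edgeR adjusted p = 0.00111), or 10.5-fold without EV replicate 2, and 6.69-fold in those with MycT58A (edgeR adjusted p = 0.00673), from 0.626 ± 0.0575 CPM in normal tissue (SD, n = 3). Col16a1 rose 8.77-fold in EV tumours (edgeR adjusted p = 0.0086), or 3.28-fold without EV replicate 2. Col19a1 stood at 2.82, 4.56 and 1.21 CPM in normal, 0, 0.0425 and 1.42 CPM in EV and 0.288, 0.071 and 0.128 CPM in MycT58A libraries. It fell 17.1-fold in those with MycT58A (edgeR adjusted p = 0.0369), or 27.6-fold without MycT58A replicate 1, a call that ended without any 1 normal or MycT58A library (edgeR adjusted p = 0.0506 to 0.115). Col20a1 stayed under 1 CPM in all 9 libraries and Col22a1 reached 2.15 CPM in EV replicate 3 and under 1 CPM elsewhere.

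Among network and anchoring collagens, Col7a1, the anchoring fibril of skin, rose 38.1-fold in EV (edgeR adjusted p = 0.000848) and 13-fold in those with MycT58A (edgeR adjusted p = 0.00329), or 59.7- and 20.3-fold without normal replicate 3. It stood at 0.0409, 0.133 and 0.233 CPM in normal, 2.16, 5.9 and 7.82 CPM in EV and 0.935, 2.77 and 1.71 CPM in MycT58A libraries, so every tumour was above every control. Col8a2, a short-chain collagen of the cornea and of vessels, stood at 69.4, 40.2 and 3.86 CPM in EV, 43.2, 42.5 and 31 CPM in MycT58A and 5.52, 6.91 and 4.2 CPM in normal libraries, with EV replicate 3 below all normal libraries. It rose 7.01-fold in those with MycT58A (edgeR adjusted p = 0.0149, or 0.0529 without normal replicate 3) and 6.82-fold in EV tumours (edgeR adjusted p = 0.0178), the latter 3.98-fold without EV replicate 1 and past the threshold neither there nor without normal replicate 1 or 3 (edgeR adjusted p = 0.0549 to 0.061). Col8a1, its partner, stood at 1.19, 4.96 and 1.35 CPM in normal, 3.66, 28.4 and 30.8 CPM in EV and 9.68, 11 and 10.1 CPM in MycT58A libraries. It rose 8.36-fold in EV tumours (edgeR adjusted p = 0.0131), or 16.7-fold without normal replicate 2. The EV and normal groups overlapped, and with limma-voom the call ended. Col10a1, the collagen of cartilage that turns to bone, was too low to be tested with all libraries, with 0.24, 0.17 and 12 CPM in EV libraries and under 1 CPM in all others. It was tested without the low-count filter or without EV replicate 1 or 2, and was then called higher in EV than in normal tissue. In each of these fits EV replicate 3 was the only library above 1 CPM, so the call rests on that 1 library.

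Of the membrane-spanning collagens, Col13a1 and Col25a1 rose in both kinds of tumour. Col13a1, which sits at cell adhesions and at the synapse of nerve and muscle, stood at 1.35, 1.11 and 1.73 CPM in normal, 17.1, 15.9 and 16.9 CPM in EV and 10.5, 9.33 and 8.23 CPM in MycT58A libraries. The 3 groups did not overlap, and the EV libraries, unlike for most collagens, lay close together. It rose 11.9-fold in EV (log2 fold change 3.57 ± 0.29 SE, edgeR adjusted p = 4.33e-05) and 6.69-fold in those with MycT58A (edgeR adjusted p = 9.5e-05). Between the tumours edgeR gave an adjusted p of 0.0751 for a 1.78-fold lower level with MycT58A, while DESeq2 and limma-voom called it lower (adjusted p = 0.000431 and 0.0454). Col25a1, a neuronal collagen found in amyloid plaques, stood at 0.409, 1.95 and 0.42 CPM in normal, 13.2, 13.8 and 15.4 CPM in EV and 9.68, 5.64 and 4.48 CPM in MycT58A libraries and rose 15.2- and 7.1-fold (edgeR adjusted p = 0.00138 and 0.00482), or 34.3- and 15.8-fold without normal replicate 2. Col23a1 was high in EV replicate 2 (52, 917 and 10.1 CPM in EV against 13.7, 26 and 18.7 CPM in normal libraries), and its rise of 16.8-fold (edgeR adjusted p = 0.0307) was 1.61-fold without that library, where the call ended, as it did without any 1 normal library (edgeR adjusted p = 0.0735 to 0.328).

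Col26a1 had the largest fitted rise of all tested collagens in MycT58A tumours and, after Col24a1, in EV tumours. Col26a1 (chromosome 5, 136741759 to 136883209), a secreted collagen first found in testis and ovary, stood at 0.49, 0.487 and 0.56 CPM in normal cerebellum, 50.2, 58.4 and 463 CPM in EV and 165, 119.9 and 82.4 CPM in MycT58A libraries. It rose 368-fold in EV (edgeR adjusted p = 0.000332), or 107-fold without EV replicate 3, and 237-fold in those with MycT58A (edgeR adjusted p = 0.000352). The tumour groups overlapped through EV replicate 3, which was highest, and edgeR gave an adjusted p of 0.592 between them. Without that library the direction turned, and Col26a1 rose 2.25-fold in MycT58A over EV tumours (edgeR adjusted p = 0.0225). Col28a1, a beaded collagen of nerves, stood at 0.327, 0.133 and 0.233 CPM in normal, 2.4, 5.44 and 0.113 CPM in EV and 1.87, 4.01 and 3.32 CPM in MycT58A libraries. Its rise in MycT58A tumours (13-fold, edgeR adjusted p = 0.0167) ended without normal replicate 2 or 3 (0.0606 and 0.0524), and that in EV tumours (11.2-fold, edgeR adjusted p = 0.0232) was 5.48-fold without EV replicate 2 and ended there and without any 1 normal library (edgeR adjusted p = 0.0544 to 0.0791). Of the 24 other collagens 21 were tested, of which 16 rose and 1 fell in EV tumours, 8 rose and 2 fell in MycT58A tumours, and 3 fell and 0 rose between the tumours. Of all genes 30.7% rose in EV and 31.2% in MycT58A tumours, so the count of rises in MycT58A tumours is near the background. Falls made 26.3% of all genes in EV and 31.0% in MycT58A tumours. Between the tumours 5.02% of all genes fell and 3.28% rose.

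Chains that are built into the same molecule varied little in their ratio in some types and widely in others. Ratios here are counts per kilobase of exon of a gene over those of its partner in the same library, so they do not depend on scaling. Col4a1 over Col4a2 was 1.27, 1.36 and 1.32 in normal, 1.05, 0.895 and 1.26 in EV and 1.6, 1.33 and 1.44 in MycT58A libraries, while Col4a1 itself ran from 34.1 to 1879 CPM. Col6a1 over Col6a2 was 1.15, 1.73 and 2.08 in normal, 1.28, 1.92 and 2.61 in EV and 2.38, 2.35 and 2.32 in MycT58A libraries. Small shifts remained. The type IV ratio was lower in every EV than in every normal library, and the type VI ratio higher in every MycT58A than in every normal library. Type I collagen, in which molecules of the common form hold more of the Col1a1 than of the Col1a2 chain, varied more widely in its ratio. Col1a1 over Col1a2 was 0.665, 0.8 and 0.677 in normal, 2.22, 3.63 and 1.95 in MycT58A and 2.17, 93.1 and 6.29 in EV libraries. EV replicate 2 thus held Col1a1 with little Col1a2, and all 6 tumour libraries were above all normal libraries in this ratio. Col5a1 over Col5a2 was 4.98, 2.37 and 2.26 in normal, 3.26, 0.217 and 0.73 in EV and 0.943, 0.757 and 0.936 in MycT58A libraries. Col9a1 over Col9a2 was 0.00445, 0.00553 and 0.00812 in normal, 0.712, 4.05 and 0.992 in EV and 3.26, 2.4 and 2.85 in MycT58A libraries, with no overlap between normal tissue and tumours. Over the 9 libraries Col11a1 over Col11a2 ran from 0.0253 to 29.1 and Col8a1 over Col8a2 from 0.0303 to 4.58. Exon lengths come from all annotated transcripts, so the size of a ratio depends on that annotation and its change between libraries does not.

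**Figure D4:**
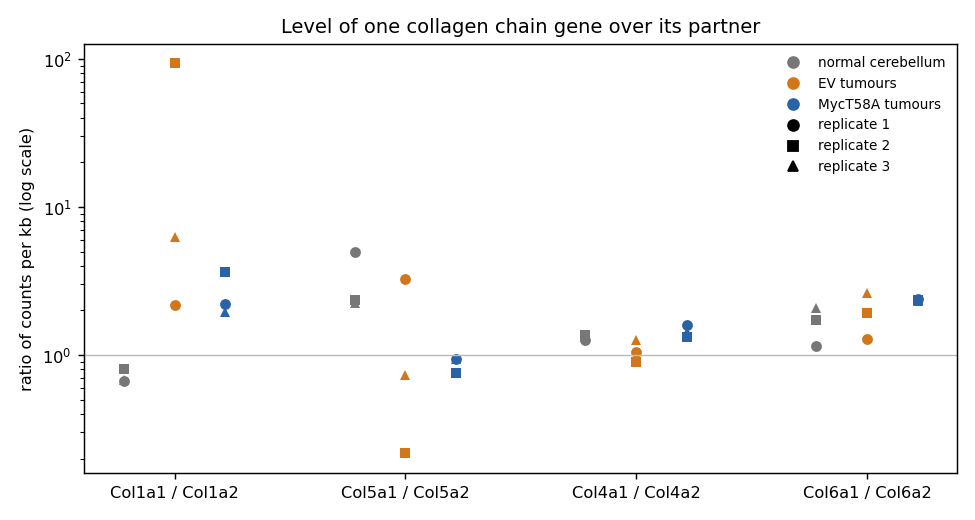
Ratio of counts per kb of exon between partner chains (vertical axis, log scale) in each library, with colour for the group and shape for the replicate; the grey line marks equal levels. Col4a1 over Col4a2 and Col6a1 over Col6a2 stay between 0.895 and 2.61, and Col1a1 over Col1a2 reaches 93.1 in EV replicate 2.

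The EV tumours differed among themselves in their collagens. The median SD over the 3 libraries of a group, on the log2 scale with a prior count of 2, was 1.84 for tested collagens and 0.64 for all genes tested in EV tumours. In MycT58A tumours it was 0.46 and 0.20, and in normal cerebellum 0.52 and 0.17. Of the 40 tested collagens, 37 had a larger SD in EV than in MycT58A tumours (92.5%), beside 85.9% of all genes tested, so this count is near the background. EV replicate 2 was the highest EV library for 24 of the 43 genes, EV replicate 3 for 13 and EV replicate 1 for 6. By class, EV replicate 2 was highest for 6 of 8 basement membrane genes and EV replicate 3 for 6 of 11 fibrillar genes, while EV replicate 1 was lowest for 8 of 11 fibrillar genes.

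Genes of the machinery that makes collagen were mostly higher in the tumours. Of 32 genes for the folding, modification, secretion, trimming and cross-linking of collagen, 20 rose and 2 fell in EV tumours and 18 rose and 5 fell in MycT58A tumours (22 and 3, and 18 and 5, without EV replicate 3), with median log2 fold changes of 1.75 and 1.73. Of all genes tested 30.7% rose and 26.3% fell in EV tumours and 31.2% and 31.0% in MycT58A tumours, with medians of 0.14 and -0.02. Serpinh1, the chaperone HSP47 of the collagen helix, stood at 28.9, 23 and 31 CPM in normal, 555, 977 and 897 CPM in EV and 554, 729 and 511 CPM in MycT58A libraries and rose 29.3- and 21.6-fold (edgeR adjusted p = 2.11e-05 and 2.39e-05). Fkbp10, a prolyl isomerase of collagen folding, rose 25.1- and 17.5-fold (edgeR adjusted p = 2.11e-05 and 2.53e-05). P3h1, a prolyl hydroxylase, rose 25.1- and 15.6-fold (edgeR adjusted p = 2.2e-05 and 3.11e-05), and P4hb, the protein disulfide isomerase subunit of prolyl 4-hydroxylase, 5.97- and 4.54-fold (edgeR adjusted p = 2.84e-05 and 4.54e-05). For these 4 genes all 6 tumour libraries were above all normal libraries. Adamts3, which trims procollagen II, fell 8.73-fold in EV (edgeR adjusted p = 0.0103), or 25.6-fold without EV replicate 3, and 22.8-fold in those with MycT58A (edgeR adjusted p = 0.00204). Mia3, the export receptor TANGO1, fell 1.94-fold in those with MycT58A (edgeR adjusted p = 0.00522) and 1.61-fold in EV tumours (edgeR adjusted p = 0.0263), a call that ended without any 1 normal library or EV replicate 1 (edgeR adjusted p = 0.0585 to 0.0708). Fkbp14, another isomerase, fell 3.58-fold in those with MycT58A (edgeR adjusted p = 0.0176, or 0.0661 without MycT58A replicate 1).

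Between MycT58A and EV tumours 1 of the 32 synthesis genes rose and 2 fell, shares near the 3.28% and 5.02% of all genes. Without EV replicate 1 or 3 the count lower was 7, beside 7.9% and 14.7% of all genes, and DESeq2 called 9 lower, beside 13.9%. The list had a median log2 fold change of -0.60 beside -2.38 for the collagens. The galactosyltransferase Colgalt1 stood at 207, 221 and 198 CPM in MycT58A, 94.4, 107 and 125 CPM in EV and 33.3, 31.7 and 34.5 CPM in normal libraries and rose 1.91-fold (edgeR adjusted p = 0.0175). Its rise in MycT58A over normal tissue was 6.28-fold (edgeR adjusted p = 2.16e-05). Adamts2, which trims procollagens I and III, stood at 2.7, 3.05 and 1.11 CPM in MycT58A, 59.9, 301 and 74.2 CPM in EV and 7.72, 12.7 and 11.4 CPM in normal libraries, with MycT58A tumours below and EV tumours above all controls. It fell 63.1-fold between the tumours (edgeR adjusted p = 0.00892), or 29.1-fold without EV replicate 2, and 4.62-fold in MycT58A against normal tissue (edgeR adjusted p = 0.0178, or 0.0615 without MycT58A replicate 3). The cross-linking oxidase Loxl4 stood at 1.51, 2.02 and 1.45 CPM in MycT58A and 15.2, 9.94 and 39.9 CPM in EV libraries and fell 13-fold (edgeR adjusted p = 0.0208), or 7.56-fold without EV replicate 3. All 3 calls ended without any 1 MycT58A library, with edgeR adjusted p from 0.0526 to 0.102, and that of Colgalt1 also without any 1 normal library (edgeR adjusted p = 0.0514 to 0.053).

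Of 10 collagen receptor genes, 9 were tested, and 6 rose in EV tumours and 3 in MycT58A tumours, beside 30.7% and 31.2% of all genes, so that 3 of 9 is near the background. Itgb1, the beta subunit shared by the collagen integrins, stood at 72.9, 80.2 and 83.1 CPM in normal, 521, 928 and 501 CPM in EV and 628, 688 and 567 CPM in MycT58A libraries and rose 8.25- and 7.97-fold (edgeR adjusted p = 7.5e-05 and 6.68e-05). Mrc2, which takes up collagen fragments, rose 10.9- and 4.68-fold (edgeR adjusted p = 0.000846 and 0.00495), or 18.4- and 7.85-fold without normal replicate 2. Ddr2, a receptor kinase for fibrillar collagen, rose 7.4- and 4.75-fold (edgeR adjusted p = 0.00225 and 0.00571). Itga10, an integrin of cartilage cells, stood at 29.7, 8.15 and 25.3 CPM in EV, 2.66, 2.09 and 1.02 CPM in MycT58A and 0.817, 1.77 and 0.42 CPM in normal libraries. It rose 20.9-fold in EV tumours (edgeR adjusted p = 0.00121), or 34.6-fold without normal replicate 2, and was the 1 receptor gene that fell in MycT58A against EV tumours (10.9-fold, edgeR adjusted p = 0.0261), a count that was 3 without EV replicate 3 and a call that ended without normal replicate 1 or any 1 MycT58A library (edgeR adjusted p = 0.0567 to 0.113). Among all genes 5.02% fell between the tumours, and 14.7% without EV replicate 3.

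Markers of cells that make collagen moved with some of these values, and their part in the collagen levels was not tested. Genes of a list need not be particular to its cell type, so a sum does not measure that cell type alone. The summed level of 12 fibroblast genes was 609, 551 and 525 CPM in normal, 2228, 10258 and 801 CPM in EV and 1697, 2027 and 1952 CPM in MycT58A libraries, so EV replicate 2 was highest and EV replicate 3, the library with the most Col1a1, was below every MycT58A library. Pdgfra, one of them, stood at 177, 163 and 58.6 CPM in EV, 50.9, 43.3 and 33.3 CPM in MycT58A and 24.9, 37 and 30.8 CPM in normal libraries. Unlike the sum, Pdgfra by itself was thus above every MycT58A library in EV replicate 3. The sum of 10 mural cell genes, which mark pericytes and smooth muscle, was 368, 352 and 335 CPM in normal, 1139, 2993 and 219 CPM in EV and 121, 184 and 106 CPM in MycT58A libraries. Pdgfrb, one of them, stood at 23.9, 23.4 and 24.5 CPM in normal, 134, 224 and 52.3 CPM in EV and 31.1, 22.6 and 21.9 CPM in MycT58A libraries. The mural sum was thus high in EV replicates 1 and 2 and below the controls in EV replicate 3 and in MycT58A tumours, while Pdgfrb by itself was above the controls in EV replicate 3. The sum of 10 endothelial genes was 293, 271 and 263 CPM in normal, 74.6, 419 and 190.0 CPM in EV and 99.7, 144 and 70.2 CPM in MycT58A libraries, and Pecam1, one of them, stood at 28.2, 24.3 and 24 CPM in normal, 10.4, 52.3 and 18.2 CPM in EV and 11.7, 17.8 and 8.31 CPM in MycT58A libraries. In MycT58A tumours Col4a1 and Col4a2 were above the controls while the endothelial sum and Pecam1 were below them. EV replicate 3 stood apart by 2 lists. The sum of 8 basal epithelium genes was 29.7, 124 and 1140.3 CPM in EV libraries, 17.4 to 23.1 CPM in MycT58A and 5.04 to 7.52 CPM in normal libraries, with Krt5 at 14.2, 1.49 and 129 CPM in EV libraries. The sum of 10 cartilage and bone genes was 254, 83.1 and 1120.3 CPM in EV, 135 to 179 CPM in MycT58A and 13.6 to 32.8 CPM in normal libraries, though the cartilage proteoglycan Acan stood at 0.0342, 0.0849 and 2.78 CPM in EV libraries. The sum of 8 choroid plexus genes was 31.6, 703 and 17.2 CPM in EV, 259.9, 345 and 555 CPM in MycT58A and 12.6, 44 and 71.2 CPM in normal libraries. For 8 leptomeningeal genes the sum was 69.7 to 139 CPM in normal, 37.2 to 145 CPM in EV and 27.3 to 45.4 CPM in MycT58A libraries. That of 10 macrophage genes was 186, 205 and 226 CPM in normal, 380, 567 and 480 CPM in EV and 143, 66.7 and 97 CPM in MycT58A libraries. It was thus highest in EV tumours, like the collagen sum, but below the controls in MycT58A tumours. No list was at 0 as a whole. The cartilage gene Matn1 had no count in either kind of tumour, Snorc had none in MycT58A libraries, and the epithelial gene Dsg3 had none in normal and MycT58A libraries.

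**Figure D5:**
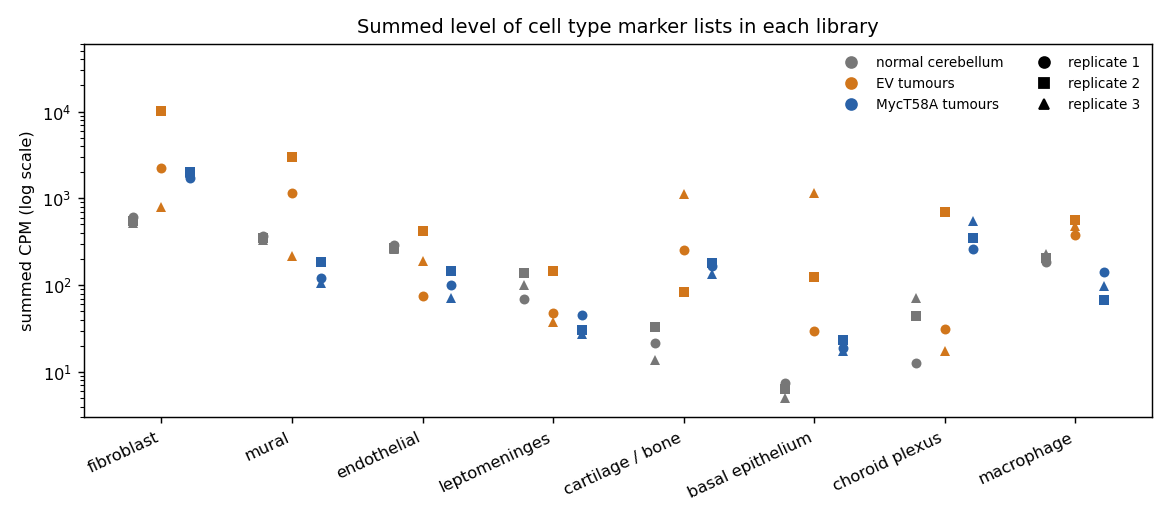
Summed CPM (vertical axis, log scale) of the marker genes of 8 cell types in each library, with colour for the group and shape for the replicate. EV replicate 2 is highest for fibroblast and mural genes, and EV replicate 3 for cartilage or bone genes and basal epithelium genes (1140.3 CPM).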

How the data were processed

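The authors deposited raw counts per gene symbol, as whole numbers with 1 column for each of 9 libraries. The submitters' processing notes name bcl2fastq, TopHat, edgeR and mm10; their versions, the read counter, its annotation and any use of strand are not stated in any source used here. Reads of overlapping genes, such as the 5′ ends of Col4a1 and Col4a2, can therefore not be told apart. Groups follow the labels, and replicates are numbered in sample order, which pairs nothing. Genes were kept with filterByExpr (minimum count 10, minimum total 15), scaled by TMM and fitted with 1 mean per group (edgeR 4.0.16 in R 4.3.3, glmQLFit and glmQLFTest), with Benjamini-Hochberg adjustment over 15171 genes at 0.05. The SE is the log2 fold change over the root of F. Because dispersion is estimated over all 9 libraries, a p-value between 2 groups also draws on the other one. The median log2 SD of tested collagens was 1.84 in EV, 0.46 in MycT58A and 0.52 in normal libraries. A shared spread can thus be too small for EV tumours and too large for the other groups. With only the 2 groups compared in the fit, calls over all genes went from 8643 to 7005 for EV against normal. For MycT58A against normal they went from 9438 to 11883, and for MycT58A against EV from 1259 to 34. The fit was tested on simulated data with the same dispersion in every gene and group. The simulation therefore does not cover groups of unequal spread, as found here. Positions and exon lengths are from GENCODE M21 (mm10). Tried as alternatives were library size alone and RLE as scaling, no filter, a filter at 1 CPM, only 2 groups in the fit, DESeq2 1.42.0, limma-voom (limma 3.58.1) and leaving out each library, and voom with weights per group was added after seeing the data. Members, lists and alternatives were chosen with earlier results of these data known. Any collagen may be named. From the synthesis and receptor lists come up to 4 genes of smallest p in each direction among those past the threshold. As examples from the marker lists Pdgfra, Pdgfrb, Pecam1, Krt5, Krt14, Acan, Gabra6 and Pcp2 were set, of which Krt14 is not printed. Genes at 0 in a list, chain pairs and promoters were picked after values were seen. Plots used matplotlib 3.10.9 under Python 3.11.15.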

Additional observations from a re-analysis of the deposited data

How the results depend on the processing

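Of 2725 single-gene values under 17 alternatives, 2426 kept sign and side of the threshold and 36 values, not called before or after, changed sign. One value turned into a call of the other sign: Col26a1 in MycT58A against EV tumours had a log2 fold change of -0.64 (edgeR adjusted p = 0.592), 1.17 without EV replicate 3 and -1.08 without EV replicate 1, the highest and lowest with 1 library left out. RLE scaling left each count of collagens called unchanged. For EV against normal, limma-voom called 18 collagens higher and 4 lower, weights per group 1 lower, and the 2 groups alone 1 synthesis gene lower. For MycT58A against normal, the 2 groups alone gave 23 collagens higher and 10 lower, DESeq2 6 lower and weights per group 8 lower. All 4 of the 2-group fit, DESeq2, limma-voom and weights per group then called 1 receptor gene lower, against 0 in the edgeR fit to all groups. For MycT58A against EV, no filter gave 3 collagens lower and 1 higher (Col6a4), DESeq2 22 and 1 (Col9a2), limma-voom 4 and 1 (Col9a1), and weights per group 2 lower. In that comparison the 2 groups alone gave 0 calls in all 3 lists (0 higher and 0 lower), and 34 calls among all 14144 genes tested. For the same comparison DESeq2 called 9 synthesis and 4 receptor genes lower, and library size alone 4 synthesis genes lower. Leaving out 1 library at a time gave, for EV against normal, 22 to 29 collagens higher and 2 to 4 lower, 19 to 22 synthesis genes higher and 1 to 6 lower, and 4 to 6 receptor genes higher. For MycT58A against normal the ranges were 12 to 20 and 2 to 6 collagens, 15 to 18 and 3 to 7 synthesis genes, and 3 to 4 and 0 to 1 receptor genes. For MycT58A against EV they were 0 to 3 and 0 to 16 collagens, 0 to 3 and 0 to 7 synthesis genes, and 0 and 0 to 3 receptor genes. Without a MycT58A library calls over all genes also dropped, from 1259 to 70, 58 and 36; the cause was not tested. With library size alone the all-gene median of MycT58A minus EV was -0.17 against -0.04, and 301 genes were called higher and 938 lower against 498 and 761. Collagens under about 1 CPM rest on few counts, and their folds depend on the prior count. No paired analysis was possible because the labels carry no replicate numbers and the numbers used follow sample order.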
